A study of Mus musculus with 6 samples.

Results

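The transcripts described here are 38 genes of the mouse p53 pathway, out of 38293 genes in the count tables. They comprise p53 itself, its regulators, and known mouse p53 targets outside the death receptors, the BCL2 family and the CDK inhibitors. The members came as a list of names, and all 38 were found in the tables by their mouse Ensembl identifier. They were divided by what their products do into 8 genes of feedback on p53, 6 of growth arrest, 5 of DNA repair, 10 of metabolic and growth signaling control, and 9 of cell death and membrane functions.

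The tumor suppressor p53 is a transcription factor that is held at low levels by the ubiquitin ligase Mdm2, and it accumulates after DNA damage, nucleolar stress or other insults. It then binds response elements in its target genes and raises products that stop the cell cycle, repair DNA, restrain growth signaling or kill the cell. Several of its targets, Mdm2 among them, act back on p53 and limit the response. In hematopoietic stem and progenitor cells, p53 is known for its roles in quiescence and in the loss of damaged cells.

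The study asked which mRNAs differ when blood-forming cells of the embryo lose hnRNP L, an RNA binding protein known for regulating splicing. RNA was sequenced from 3 wt embryos and from 3 knock-out embryos (VavCre+ hnRNP L fl/fl, here called KO or hnRNP L deficient), all of the C57BL/6 strain at embryonic day 14.5. Each library came from 1 embryo, and the labels name no other altered allele and no treatment. According to the methods the cells were sorted Lin-cKit+ fetal liver cells, whereas the labels name fetal liver cells as the source and whole embryo as the tissue. The labels call the controls wild-type, whereas the study marks them in a plot of these reads as L fl/fl, which denotes floxed alleles. Cre was driven by the Vav promoter, which acts in hematopoietic cells, so cells of other lineages in a library would keep *Hnrnpl*.

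Reads on genes numbered between 55952160 and 76157226 per library, and 3 reads corresponded to between 0.0402 and 0.054 CPM, which are counts scaled to a common library size. *Hnrnpl* itself fell by 1.01 on the log2 scale (edgeR adjusted p = 0.00724), from 537 ± 13.2 CPM (SD, n = 3) in wt to 267 ± 23.2 CPM (SD, n = 3) in KO cells, so that part of its mRNA remained. The defining marker *Kit* was high in every library, with 423, 488 and 656 CPM in wt and 368, 325 and 330 CPM in KO cells. The summed level of 8 progenitor markers was 1140 to 1604 CPM in wt and 890 to 1009 CPM in KO cells, and 6 of the 8 fell. The sum of 7 granulocyte precursor markers was 8014 CPM in wt replicate 2, against 562 and 1448 CPM in wt replicates 1 and 3 and 237 to 787 CPM in KO cells, and 0 of the 7 passed edgeR's test. Wt replicate 2 thus stood apart from all other libraries. Fold changes of members that it moved by over 1.5 times are given with and without it where the member is described. For genes outside the members, fold changes are given with all libraries only. All 7 hepatocyte markers were lower in every KO than in every wt library, with sums of 113 to 236 CPM in wt and 21.3 to 72.4 CPM in KO cells, and 2 of them fell. This order of the libraries was found in 22.7% of all genes tested. Of the other markers tested, 1 of 9 erythroid, 3 of 7 macrophage, 1 of 6 megakaryocyte, 0 of 5 mast cell, 2 of 3 lymphoid and 1 of 5 endothelial or stromal genes fell and 0 rose. Over all genes tested, 9.85% fell and 9.32% rose at an edgeR adjusted p under 0.05. In bulk RNA, fewer cells of a type and less RNA per cell cannot be told apart, and the part of these markers in the p53 pathway values was not tested.

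Response elements near the start sites of the members are shown first, because p53 acts on its targets through such sequences. A response element is formed by 2 adjoining copies of a half-site of 10 bases. The 300 bases around RefSeq start sites (assembly GRCm38.p6) and the first 300 bases of annotated transcripts (GENCODE M21, GRCm38) were searched on the strand of the gene for 2 half-sites without a spacer. The invariant C and G of each half-site had to be present, and up to 3 other bases could differ from the consensus, which reads the same on both strands. Such a match was present in 1.38% of all 32851 promoter windows and in 1.15% of 141767 transcripts. A promoter window existed for 31 members and held a match in 5 of them. The sites found are given 5′ to 3′ on the strand of the gene, with the bases that match the consensus in capitals.

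Ccng1: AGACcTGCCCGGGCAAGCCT
Rps27l: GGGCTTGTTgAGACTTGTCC
Aen: GGGCTTGTCCGGGCAAGgag
Trp53: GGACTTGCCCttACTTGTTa
Sesn1: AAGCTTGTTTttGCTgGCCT
Mdm2: GGtCAAGTTgGGACAcGTCC
Pidd1, upstream copy: AGcCTTGCCTAAGCAgGCTT
Pidd1, downstream copy: tGGCAAGCTgGGACATGTCT
Rrm2b: AGtCATGTTCcAGCATGTCT
Ei24: tGGCAgGCCgGAGCTAGTTC

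The sites of *Ccng1* (chr11:40755462-40755481, minus strand, upstream of the gene) and *Rps27l* (chr9:66946296-66946315, plus strand, within an intron of the annotated gene but before the RefSeq start) each had 1 mismatch. They start at -195 and -117 from the RefSeq start. The matches of *Trp53* (chr11:69580284-69580303, plus strand, upstream of the gene, at -75) and *Sesn1* (chr10:41887266-41887285, plus strand, intronic for the longer transcripts, at -173) had 3 mismatches, as had that of *Aen* (chr7:78895937-78895956, plus strand, in an exon of the untranslated leader). The others lie within the first exon of an annotated transcript. That of *Mdm2* is at chr10:117710105-117710124 (minus strand, 3 mismatches) and those of *Pidd1* are at chr7:141443326-141443345 and chr7:141443303-141443322 (minus strand, 2 mismatches each). That of *Rrm2b* is at chr15:37954851-37954870 (minus strand, 2 mismatches) and that of *Ei24* at chr9:36797116-36797135 (minus strand, 3 mismatches). Genes with a match did not all move alike, since 6 of the 9 rose, *Sesn1* fell, and *Rps27l* and *Trp53* did not pass the test. Of all 37 members tested, with or without a match, 20 rose (54.1%), as did 9.32% of all genes tested. Whether a match goes with a rise was not tested. A match is only a description of these letters, and binding of p53 was not measured here.

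Of the 38 members, 37 passed the expression filter and were tested with edgeR's quasi-likelihood test fitted on all 14396 genes kept. Without a read in any library, *Spata18* (Mieap, a protein of mitochondrial quality control) was the exception. Taking adjusted p-values under 0.05, 20 of the 37 rose in KO cells (54.1%), against 9.32% of all genes tested. Only *Sesn1* fell, against 9.85% of all genes, and in either direction 19.2% of all genes were called. Positive log2 fold changes were found for 28 of the 37, against 47.5% of all genes. The remaining 16 did not pass, and 5 of these had an unadjusted p-value under 0.05 (31.2%, against 22.8% of all genes that did not pass). The median log2 fold change of the 37 was 0.55, whereas that of all genes tested was -0.03. More than 2-fold rises were found for 11 members, against 1.56% of all genes. In 23 members every KO library was above every wt library and in 4 every KO library was below, whereas each of these orders was found in 22.7% of all genes. The members were chosen with earlier results of these data known. *Lif*, which passed the expression filter through the KO libraries alone, is in each of these counts of higher members.

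These counts depended on the libraries included, as did those of all genes. Without wt replicate 2 the test called 22 members higher and 2 lower, against 11.4% and 12.7% of all genes, and without wt replicate 1 it called 21 and 2, against 15.7% and 16.8%. Leaving out wt replicate 3 or KO replicate 1, 2 or 3 left 1, 4, 2 and 2 members called higher and 0 lower, and among all genes 5, 15, 8 and 7 were called higher in these fits. At an unadjusted p-value under 0.05 the same 4 fits had 21, 23, 21 and 21 members higher, against 15.5%, 12.6%, 13.6% and 11.8% of all genes. The 20 members that rose kept a positive log2 fold change in all 6 fits with a library left out, the smallest being 0.28, and their adjusted p-values reached at most 0.167. *Phlda3* was the only one called in all 6. The study, which tested with DESeq rather than edgeR, lists 8 of the members as raised in these same libraries. Of those, 7 were among the 20, which is not independent evidence of their direction. The exception was *Rnf144b*, with a log2 fold change of -0.62 that did not pass the test and that turned to 0.92 without wt replicate 2.

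**Figure D1:**
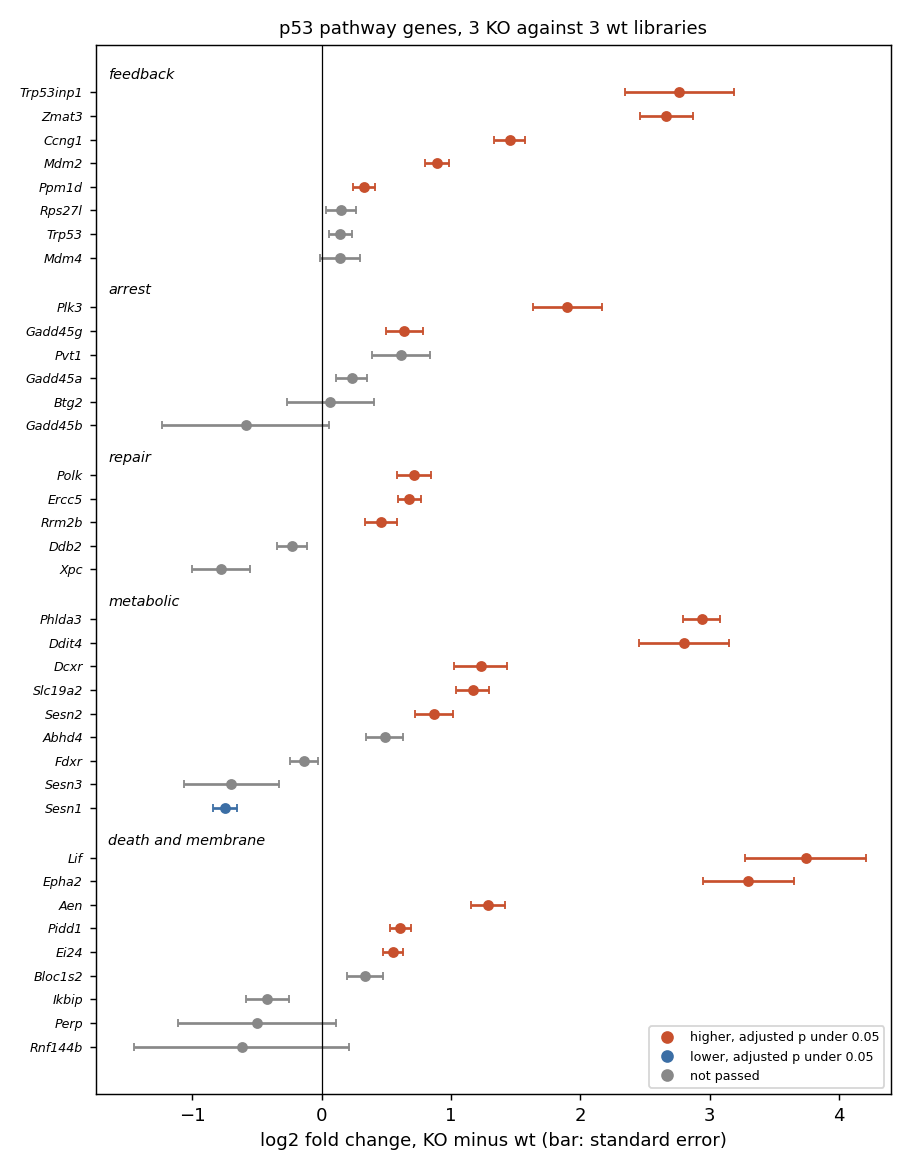
Log2 fold change (horizontal axis, KO minus wt, with its standard error as a bar) of the 37 tested p53 pathway genes, grouped by function and ordered by size within a group. Genes past an adjusted p of 0.05 are in red (20 higher) or blue (*Sesn1*, lower) and the 16 others in grey; values span -0.78 for *Xpc* to 3.74 for *Lif*.

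The genes that feed back on p53 were led by *Trp53inp1* and *Zmat3*, and 5 of the 8 rose (62.5%, against 9.32% of all genes tested). *Trp53* (ENSMUSG00000059552, chr11:69580359-69591873) had 314.4, 288.6 and 338.2 CPM in wt cells and 365.9, 339.9 and 334.6 CPM in KO cells, given here and throughout in the order of replicates 1 to 3. The groups overlapped, since wt replicate 3 was above KO replicate 3, and the log2 fold change of 0.14 ± 0.09 (standard error) did not pass the test (edgeR adjusted p = 0.262), being 0.089 without wt replicate 2. *Mdm2* (ENSMUSG00000020184, chr10:117688875-117710758), which encodes the ligase that degrades p53, had 59.2, 63.8 and 57.2 CPM in wt and 99.1, 117 and 119 CPM in KO cells. All KO libraries were above all wt libraries, with a difference of 0.90 ± 0.09 on the log2 scale (edgeR adjusted p = 0.00985). Its relative *Mdm4*, which inhibits p53 without being a strong ligase itself, had 117, 74.8 and 108 CPM in wt and 109, 112 and 110 CPM in KO cells. Only wt replicate 2 was low here, and its removal moved the log2 fold change from 0.14 to -0.029 (edgeR adjusted p = 0.544 and 0.754).

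*Ppm1d* encodes the phosphatase Wip1, which removes activating phosphates from p53. It had 38.1, 34.6 and 32.5 CPM in wt and 42.9, 43.6 and 45.4 CPM in KO cells, a rise of 0.33 ± 0.09 on the log2 scale (edgeR adjusted p = 0.0398). Although the groups did not overlap, this was the smallest rise of the 20. *Ccng1*, which encodes cyclin G1, a partner of protein phosphatase 2A in the control of Mdm2, had 124, 91.5 and 117 CPM in wt and 293, 300.4 and 317 CPM in KO cells. The KO libraries were close to each other and far above the wt libraries, with a difference of 1.45 ± 0.12 on the log2 scale (edgeR adjusted p = 0.00701). *Rps27l*, a ribosomal protein paralog that binds Mdm2, had the most reads per length of all members. Its 196, 178 and 144 CPM in wt and 185, 193 and 194 CPM in KO cells overlapped (edgeR adjusted p = 0.383).

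*Trp53inp1*, whose product promotes phosphorylation of p53, was low in wt cells, with 1.49, 4.75 and 3.41 CPM, against 16.5, 25.6 and 23.6 CPM in KO cells. Its log2 fold change was 2.76 ± 0.42 (edgeR adjusted p = 0.0147), and the groups were well apart although KO replicate 1 was lower than the other KO libraries. *Zmat3* (ENSMUSG00000027663, chr3:32334792-32366014) encodes a zinc finger protein that binds RNA. It had 12, 6.90 and 8.78 CPM in wt and 54.5, 57.3 and 64.2 CPM in KO cells, a rise of 2.67 ± 0.21 on the log2 scale (edgeR adjusted p = 0.00578). The call on *Zmat3* was made in 5 of the 6 fits with a library left out. Of the 5 calls in this group 0 were made without wt replicate 3, 3 without KO replicate 1, and 1 each without KO replicate 2 or 3.

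**Figure D2:**
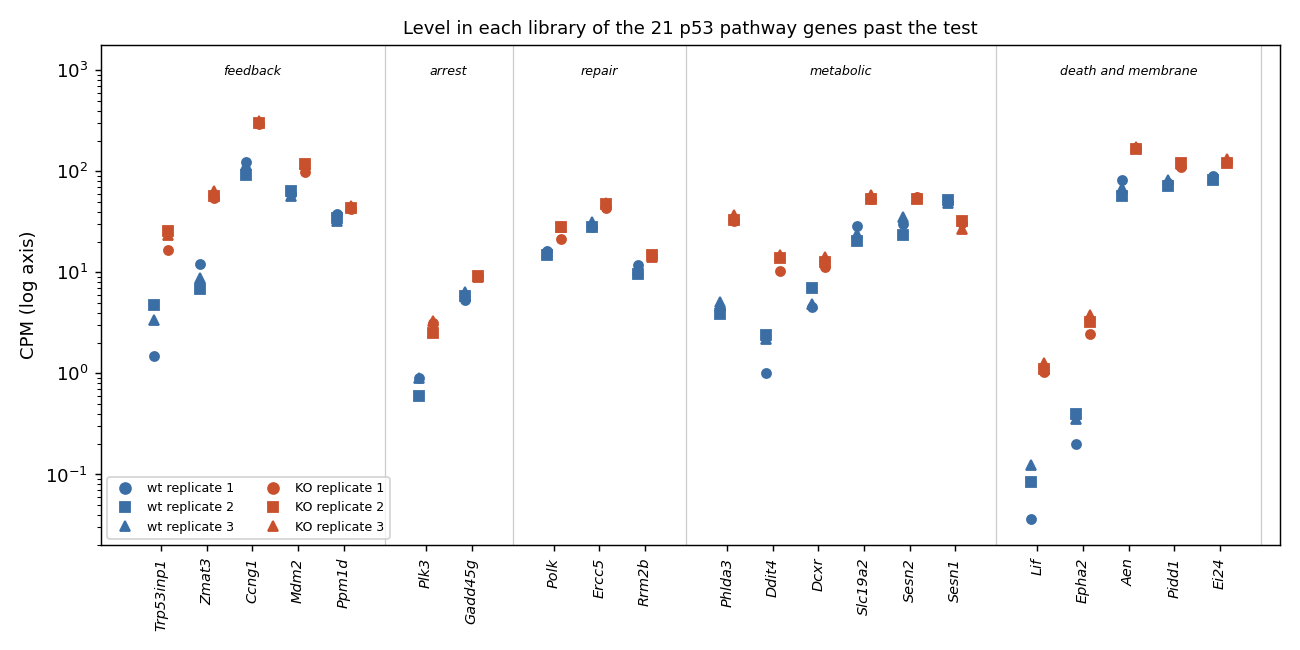
CPM on a log axis of the 21 genes past the test in each of the 3 wt (blue) and 3 KO (red) libraries, with a symbol per replicate. In 20 genes all KO points lie above all wt points, and in *Sesn1* they lie below; *Lif* spans 0.036 to 1.26 CPM and *Ccng1* 91.5 to 317 CPM.

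Among the genes of growth arrest 2 of 6 rose (33.3%, against 9.32% of all genes tested). *Plk3* (ENSMUSG00000028680, chr4:117128655-117133963), which encodes a stress-responsive kinase, had 0.900, 0.600 and 0.895 CPM in wt and 3.15, 2.52 and 3.28 CPM in KO cells. All KO values were above all wt values, with a difference of 1.90 ± 0.27 on the log2 scale (edgeR adjusted p = 0.0138). Of the 3 Gadd45 genes, which encode small stress proteins that bind cell cycle and signaling partners, only *Gadd45g* passed the test. It had 5.28, 5.87 and 6.41 CPM in wt and 9.12, 9.18 and 9.07 CPM in KO cells, a rise of 0.64 ± 0.14 on the log2 scale (edgeR adjusted p = 0.0284). The KO libraries hardly differed from each other.

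*Gadd45a*, the family member best known as a p53 target, had 20.3, 20.6 and 22.3 CPM in wt and 21.2, 27.2 and 25.8 CPM in KO cells. The groups overlapped through KO replicate 1 (log2 fold change 0.23 ± 0.12, edgeR adjusted p = 0.202). *Gadd45b* had 0.810, 5.19 and 1.42 CPM in wt and 1.48, 1.56 and 1.89 CPM in KO cells. It was high in wt replicate 2 alone, and its log2 fold change turned from -0.59 (edgeR adjusted p = 0.538) to 0.55 without that library (edgeR adjusted p = 0.256).

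The antiproliferative gene *Btg2* varied within both groups, with 11.3, 26.2 and 18.6 CPM in wt and 13.4, 24.3 and 21.1 CPM in KO cells. Its difference of 0.07 on the log2 scale (edgeR adjusted p = 0.905) changed with the libraries, to 0.39 without wt replicate 2, to -0.19 without wt replicate 1 and -0.099 without KO replicate 2, and to -0.011 when counts were scaled by library totals only. *Pvt1*, a long noncoding RNA next to *Myc*, had 22.6, 12.1 and 20.1 CPM in wt and 25.6, 30.2 and 28.2 CPM in KO cells. The groups did not overlap, but the log2 fold change of 0.62 ± 0.22 did not pass (edgeR adjusted p = 0.0911), whereas it passed without wt replicate 1 or wt replicate 2 and with DESeq2. Wt replicate 2 was the lowest library, and without it the log2 fold change shrank to 0.39 (edgeR adjusted p = 0.0371). The 2 calls in this group became 0 without wt replicate 3 or any of the KO replicates.

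The repair genes split, and 3 of 5 rose (60%, against 9.32% of all genes tested). The other 2 were lower in every KO than in every wt library, an order found in 22.7% of all genes. *Ercc5* (ENSMUSG00000026048, chr1:44147744-44181260) encodes XPG, the endonuclease that cuts on the 3′ side of a lesion in nucleotide excision repair. It had 28.2, 28.1 and 31.4 CPM in wt and 43.3, 48.0 and 49.0 CPM in KO cells, a rise of 0.68 ± 0.09 on the log2 scale (edgeR adjusted p = 0.0125). *Polk*, a translesion DNA polymerase, had 16.4, 15 and 15.9 CPM in wt and 21.6, 28.1 and 28.1 CPM in KO cells, a rise of 0.72 ± 0.13 (edgeR adjusted p = 0.0186). *Rrm2b* encodes the p53-inducible subunit of ribonucleotide reductase, which supplies nucleotides for repair. Its 11.9, 9.57 and 10.5 CPM in wt and 14.6, 15 and 14.3 CPM in KO cells gave a rise of 0.46 ± 0.13 (edgeR adjusted p = 0.0458). In these 3 genes the groups did not overlap.

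*Xpc* and *Ddb2*, which recognize the lesion at the start of nucleotide excision repair, had lower values in KO cells. *Xpc* (ENSMUSG00000030094, chr6:91489305-91515888) had 32.2, 60.6 and 39.9 CPM in wt and 27.6, 24.5 and 25.2 CPM in KO cells. Every KO library was below every wt library, and the highest value was that of wt replicate 2. The log2 fold change was -0.78 ± 0.22 with an edgeR adjusted p just above the threshold, and it was past it with DESeq2, with median-of-ratios factors, with library totals, and without wt replicate 1 or 2, but not under the other filters, without robust estimation or without any other library. Without wt replicate 2 the log2 fold change shrank to -0.48 (edgeR adjusted p = 0.0231). *Ddb2* had 17.7, 19.3 and 17.5 CPM in wt and 14.4, 17.2 and 15 CPM in KO cells, and its log2 fold change of -0.23 ± 0.12 did not pass (edgeR adjusted p = 0.196). The groups were next to each other without overlap. The 3 rises in this group became 0 calls without wt replicate 3 or any of the KO replicates.

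**Figure D3:**
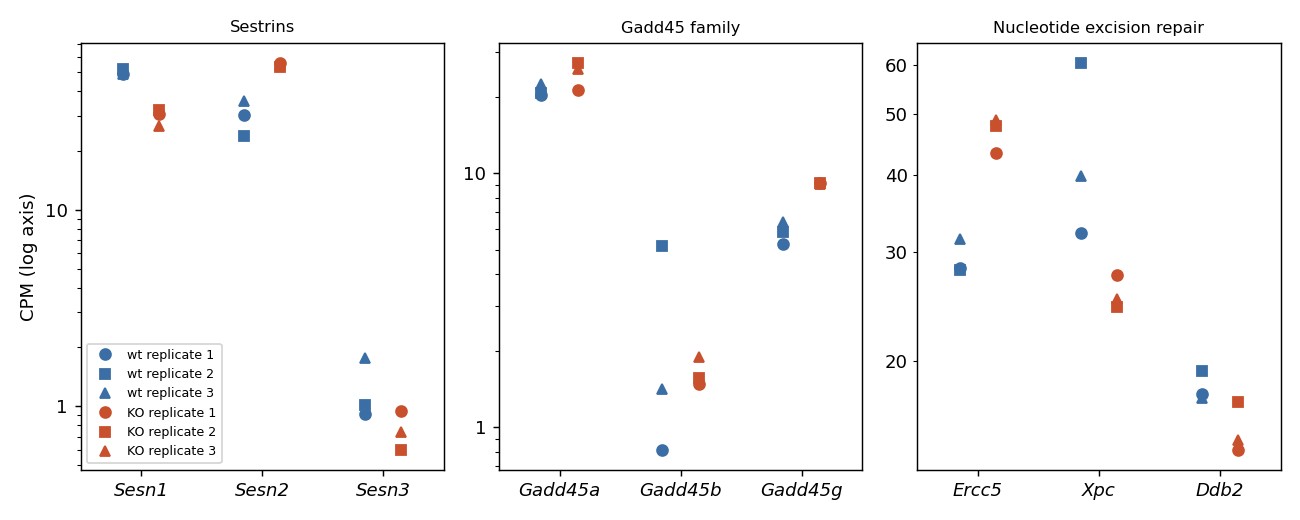
CPM on a log axis of the sestrin genes, the Gadd45 genes and 3 genes of nucleotide excision repair in each wt (blue) and KO (red) library. *Sesn2*, *Gadd45g* and *Ercc5* are higher in all KO libraries, *Sesn1*, *Xpc* and *Ddb2* are lower in all of them, and *Gadd45b* is high in wt replicate 2 only (5.19 CPM).

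In the metabolic and growth signaling group 5 of 9 tested genes rose (55.6%, against 9.32% of all genes tested). *Sesn1* fell, as did 9.85% of all genes. *Phlda3* (ENSMUSG00000041801, chr1:135766119-135769136) encodes a lipid-binding protein that represses the kinase Akt. It had 4.34, 3.85 and 5.15 CPM in wt and 32.6, 33.2 and 36.6 CPM in KO cells, a 7.67-fold difference (log2 fold change 2.94 ± 0.14, edgeR adjusted p = 0.000608). Libraries of a group were close to each other and the groups far apart. *Ddit4* encodes REDD1, an inhibitor of the growth-promoting kinase complex mTORC1. With 1.01, 2.38 and 2.19 CPM in wt and 10.3, 14.0 and 14.8 CPM in KO cells it rose by 2.80 ± 0.35 on the log2 scale (edgeR adjusted p = 0.0110), and all KO libraries were higher.

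The sestrins are stress proteins that also restrain mTORC1 and act against peroxides, and their genes did not move together. *Sesn2* had 30.3, 23.6 and 35.7 CPM in wt and 56.0, 53.2 and 54.3 CPM in KO cells, a rise of 0.87 ± 0.15 on the log2 scale (edgeR adjusted p = 0.0159). *Sesn1* (ENSMUSG00000038332, chr10:41809935-41908424) had 49.3, 52.0 and 49.1 CPM in wt and 30.7, 32.3 and 26.8 CPM in KO cells, a difference of -0.75 ± 0.09 on the log2 scale (edgeR adjusted p = 0.0110). For both genes the groups were clearly separate, in opposite directions. *Sesn3* had about 1 CPM, with 0.918, 1.02 and 1.76 in wt and 0.947, 0.597 and 0.737 in KO cells, and its groups overlapped (log2 fold change -0.70 ± 0.37, edgeR adjusted p = 0.205). In wt cells *Sesn1* had 12.6 CPM per kilobase of exon and *Sesn2* 8.61, whereas in KO cells the order was turned, with 7.51 and 15.7.

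*Slc19a2*, a thiamine transporter, had 28.6, 20.6 and 24.0 CPM in wt and 53.3, 53.1 and 57.9 CPM in KO cells (log2 fold change 1.17 ± 0.13, edgeR adjusted p = 0.00985). *Dcxr*, a reductase of sugars and dicarbonyls, had 4.54, 6.99 and 4.82 CPM in wt and 11.3, 12.8 and 14.2 CPM in KO cells (log2 fold change 1.23 ± 0.21, edgeR adjusted p = 0.0159). All KO libraries were above all wt libraries in both. The lipase gene *Abhd4* was also higher in all KO libraries, with a log2 fold change of 0.49 ± 0.14, but missed the threshold (edgeR adjusted p = 0.0544), which it passed with DESeq2 and with every gene that had a read. *Fdxr*, the reductase that feeds electrons to mitochondrial ferredoxins, had 25.8, 32.4 and 28.6 CPM in wt and 26.5, 26.8 and 25.7 CPM in KO cells. Its groups overlapped (log2 fold change -0.14 ± 0.10, edgeR adjusted p = 0.375, and -0.048 without wt replicate 2). Without wt replicate 3 or any of the KO replicates, 1 of the 5 rises was called, that of *Phlda3*, and the fall of *Sesn1* was not.

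In the group of cell death and membrane functions 5 of 9 genes rose (55.6%, against 9.32% of all genes tested). Those with the largest fold changes were almost silent in wt cells. *Lif* (ENSMUSG00000034394, chr11:4257557-4272514), a cytokine of the interleukin 6 family, was counted with 2, 5 and 9 reads in wt and with 66, 73 and 94 reads in KO cells, or 0.036, 0.0834 and 0.124 CPM against 1.03, 1.12 and 1.26 CPM. Its log2 fold change was 3.74 ± 0.47 (edgeR adjusted p = 0.0112). *Lif* was the only member that passed the expression filter through the KO libraries alone, so that it could be tested only because it was higher there. *Epha2* (ENSMUSG00000006445, chr4:141301240-141329384), an ephrin receptor, had 0.198, 0.400 and 0.358 CPM in wt and 2.49, 3.21 and 3.80 CPM in KO cells. All KO values were far above the wt values, with a difference of 3.30 ± 0.35 on the log2 scale (edgeR adjusted p = 0.00985).

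*Aen*, a nuclease that digests DNA in apoptosis, had 82.7, 57.0 and 69.0 CPM in wt and 169, 166 and 174 CPM in KO cells (log2 fold change 1.29 ± 0.13, edgeR adjusted p = 0.00985). *Pidd1*, the scaffold of the PIDDosome, a complex that activates caspase-2, had 76.6, 71.5 and 82.5 CPM in wt and 110, 122 and 120 CPM in KO cells (log2 fold change 0.61 ± 0.08, edgeR adjusted p = 0.0127). *Ei24*, a protein of the endoplasmic reticulum, had 91.1, 82.1 and 85.6 CPM in wt and 125, 120 and 134 CPM in KO cells (log2 fold change 0.55 ± 0.07, edgeR adjusted p = 0.0127). In all 3 genes the lowest KO library was above the highest wt library. *Bloc1s2*, a subunit of a lysosome-related complex, was also higher in every KO library but did not pass (log2 fold change 0.33, edgeR adjusted p = 0.131) unless wt replicate 2 was left out, and *Ikbip* was lower in every KO library without passing (log2 fold change -0.42, edgeR adjusted p = 0.115, and -0.26 without wt replicate 2). Without wt replicate 3 or any of the KO replicates, 0 of the 5 rises were called.

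*Perp*, a membrane protein of desmosomes, and *Rnf144b*, a ubiquitin ligase, were high in wt replicate 2. *Perp* had 4.12, 15.4 and 3.17 CPM in wt and 4.02, 6.38 and 5.61 CPM in KO cells. *Rnf144b* had 1.69, 18.4 and 3.73 CPM in wt and 5.30, 4.79 and 5.39 CPM in KO cells. The groups overlapped in both genes, and without wt replicate 2 their log2 fold changes turned from -0.50 to 0.55 and from -0.62 to 0.92, again without passing the test (edgeR adjusted p = 0.143 and 0.0768). The granulocyte precursor markers, with 8014 CPM in wt replicate 2, were high in the same library, as was the sum of 7 macrophage markers, with 257 CPM there and 10 to 73 CPM in the other libraries. The part of such cells in the values of *Gadd45b*, *Perp*, *Rnf144b*, *Mdm4* and *Xpc* was not tested.

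**Figure D4:**
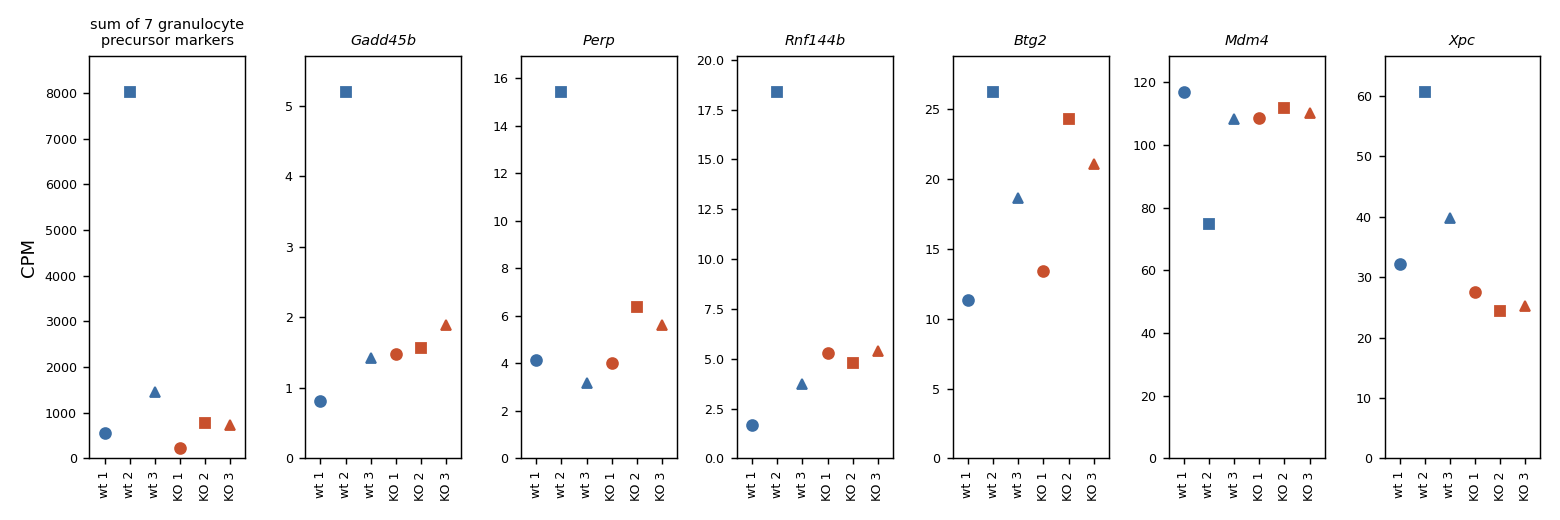
CPM of 6 members in each library, on linear axes from 0, beside the summed CPM of 7 granulocyte precursor markers (wt in blue, KO in red). Wt replicate 2 has the highest value of the marker sum (8014 CPM) and of *Gadd45b*, *Perp*, *Rnf144b*, *Btg2* and *Xpc*, and the lowest of *Mdm4* (74.8 CPM).

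Levels of different members can be compared only per length of exon. In wt cells the mean level ranged from 211 CPM per kilobase for *Rps27l*, 77.6 for *Trp53* and 31.6 for *Ccng1* down to 0.0807 for *Sesn3*, 0.0682 for *Epha2* and 0.0186 for *Lif*. In KO cells *Ccng1*, with 86.4 CPM per kilobase, stood beside *Trp53* with 85.7. *Phlda3* moved from 2.85 to 21.9 CPM per kilobase and so to the level of *Mdm2* in KO cells, 22.0. These lengths merge the exons of all annotated transcripts, so a gene with long rare exons appears lower. Exons of *Ddb2*, *Ei24*, *Gadd45a* and *Plk3* share between 84 and 652 bases with another counted gene on the opposite strand, and whether the counting used strand is not given in the sources used here.

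Exon usage was compared next, because hnRNP L is known for its part in splicing. Exon bins, the pieces into which the exons of a gene are cut where transcripts differ, were counted in 5 libraries, the 3 wt libraries and KO replicates 2 and 3, whose embryo numbers share their first part in the labels. Of 532 bins of the members, 435 bins in 36 members had a mean of at least 10 reads. After adjustment 0 passed the test of diffSpliceDGE (edgeR), against 0.0288% of all bins tested. With so small a share over all bins, 0 among 435 does not set the members apart. It cannot show that their exon usage was unchanged. At an unadjusted p-value under 0.05 there were 6 (1.38%, against 1.02% of all bins) with diffSpliceDGE. With limma's diffSplice there were 14, and the share over all bins is not given here. After adjustment limma also called 0 member bins, against 220 of all 176996 bins. The 6 were bins of *Dcxr*, *Aen* (2 bins), *Rps27l*, *Ercc5* and *Mdm4*. For *Mdm4* this was bin 13, with 7, 4 and 15 reads in wt and 27 and 33 reads in KO cells, a log2 change in usage of 1.46 relative to the rest of the gene. The bin of *Trp53* with the smallest p-value, bin 20, changed in usage by only -0.21 on the log2 scale, with 306 to 642 reads in wt and 442 to 484 reads in KO cells, so that the groups overlapped. Without wt replicate 2 diffSpliceDGE called 1 of 439 member bins, of *Pvt1*, against 156 of all 176099 bins. Without wt replicate 3 it called 1 of 438 member bins, of *Rps27l*, against 34 of all 175952 bins.

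In *Mdm2* the bin with the smallest p-value in diffSpliceDGE was bin 26 (chr10:117710079-117710292). The first exon of the main transcripts is bins 27 and 28 (chr10:117710552-117710711), and bin 26 lies downstream of it, in the intron that follows for most transcripts, where others start. From textbook knowledge, *Mdm2* has a constitutive promoter before its first exon and a p53-responsive promoter in its first intron. Bin 26 also holds the response element match shown above. It had 10, 18 and 3 reads in wt and 54 and 61 reads in KO cells, and its log2 change in usage was 1.20, which did not pass the test after adjustment. The adjoining bin 25 (chr10:117710029-117710078) had 17, 25 and 1 reads in wt and 67 and 81 reads in KO cells. It had the smallest p-value of *Mdm2* in limma's diffSplice, with a log2 change in usage of 2.08 that did not pass (limma adjusted p = 0.0703). Both bins were higher in each KO library than in each wt library.

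For each read on bins 27 and 28 there were 0.197, 0.309 and 0.0211 reads on bins 25 and 26 in wt replicates 1 to 3 and 0.555 and 0.648 in KO replicates 2 and 3. The numbers behind these ratios were 27 of the downstream and 137 of the first exon reads in wt replicate 1, 43 and 139 in wt replicate 2, 4 and 190 in wt replicate 3, 121 and 218 in KO replicate 2, and 142 and 219 in KO replicate 3. The 2 KO ratios were above the 3 wt ratios, and wt replicate 3 was far below the others. The pair of bins was chosen after their values were seen, so that the ratio is a description with no test. Bin positions were rebuilt from the GENCODE M21 annotation, which gave 30 bins for *Mdm2* as in the tables.

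**Figure D5:**
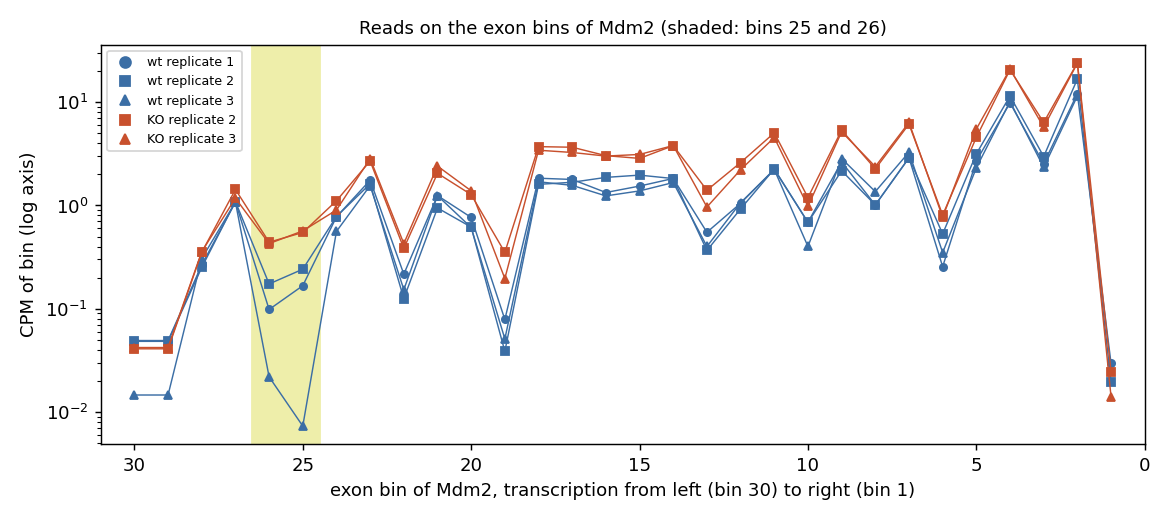
CPM on a log axis of the exon bins of *Mdm2* in 3 wt (blue) and 2 KO (red) libraries, ordered from the 5′ end of the gene (left) to the 3′ end. KO libraries lie above wt libraries on most bins; bins 25 and 26 (shaded) are lowest in wt replicate 3, with 1 and 3 reads, and a bin without reads (bin 1 in wt replicate 3) is not drawn.

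Other genes of the p53 pathway were counted from 3 lists. Of 10 targets of apoptosis and CDK inhibition, 5 rose (50%) and 0 fell, against 9.32% and 9.85% of all genes tested. Their median log2 fold change was 0.79, whereas that of all genes tested was -0.03. The 5 were *Eda2r* (log2 fold change 5.75), the CDK inhibitor *Cdkn1a* (4.26), the death receptor genes *Fas* (3.42) and *Tnfrsf10b* (2.71), and *Bax* (0.82), whereas *Bbc3* (0.76) and *Pmaip1* (0.22), which encode Puma and Noxa, did not pass. *Fas* was counted with 3, 36 and 7 reads in wt, few and mostly in wt replicate 2, and with 174, 135 and 243 reads in KO cells. *Pmaip1* had 2.83, 10.7 and 3.62 CPM in wt and 5.86, 6.66 and 7.50 CPM in KO cells. Its highest value was thus that of wt replicate 2, and its fold change without that library is not given here. Of 17 further targets 15 were tested, 5 rose (33.3%) and 2 fell, against 9.32% and 9.85% of all genes tested. Their median log2 fold change was 0.17. The rises were those of *Psrc1* (log2 fold change 1.81), *Ak1* (1.70), *Gtse1* (0.94), *Ptp4a3* (0.93) and *Sco2* (0.61), although *Sco2* shares exon bases with its neighbours. *Ccng2*, a relative of *Ccng1*, fell by 2.03 on the log2 scale, and *Cd82*, a tetraspanin, fell by 0.57. Wt replicate 2 was the highest library of *Ccng2*, with 6.93, 25.5 and 14.1 CPM in wt and 3.03, 4.57 and 3.76 CPM in KO cells.

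The last list held kinases and modifiers that act on p53. Of its 17 genes 16 were tested, 2 rose (12.5%, against 9.32% of all genes) and 1 fell, and the median log2 fold change was 0.01. *Prmt5*, an arginine methyltransferase, rose by 0.63 and the ubiquitin ligase gene *Rchy1* by 0.28 on the log2 scale, whereas *Cop1*, also a ubiquitin ligase gene, fell by 0.34. The damage kinases *Atm* and *Atr* each had a log2 fold change of -0.07 and *Chek1* of -0.01, with overlapping groups. Both *Atm* and *Atr* were lowest in wt replicate 2, with 69.2 and 99.9 CPM. *Chek2* was lower in every KO library with a log2 fold change of -0.24, but did not pass (edgeR adjusted p = 0.0735).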

How the data were processed

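RNA from Lin-cKit+ fetal liver cells of 3 wt and 3 KO embryos was sequenced from stranded mRNA libraries. The submitters' processing notes name TopHat2 2.0.10, SAMtools, HTSeq and DESeq and the build GRCm38. The authors deposited whole-number read counts per Ensembl gene and per exon bin, without normalization. The Ensembl release and strand setting are not given in the sources used here. Rows that name no gene, such as reads without a unique alignment, took 46.7% to 53.3% of a library and were left out.

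Counts were scaled by TMM and tested with edgeR 4.0.16 (R 4.3.3; default expression filter, robust quasi-likelihood test, Benjamini-Hochberg adjustment over 14396 genes). CPM are counts divided by the normalized library size, errors of log2 fold changes are standard errors, and multiple testing was adjusted over all genes, never over the members. Usage of exon bins was tested with diffSpliceDGE, leaving out bins that averaged under 10 reads. Scripts were tested on simulated data. Alternatives were DESeq2 1.42.0, limma 3.58.1 for bins, other scaling factors and filters, no robust estimation, a 2-fold threshold, and each library left out. Exon bins of KO replicate 1 were not analysed here.

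The members, their groups and the other gene lists were chosen with earlier results of these data known. All members were named, with values per library for those called, for *Trp53*, *Mdm2* and *Mdm4*, for listed members whose groups overlap and for members whose direction changed with a library, and other p53 genes were named where called. One further p53 target is not reported here and was left out of the counts of its list. A few others (*Bbc3*, *Pmaip1*, *Atm*, *Atr*, *Chek1*, *Chek2*) were named after their values were seen. Nothing in the labels says whether embryos shared a litter. An exact permutation test of 3 against 3 libraries cannot go below p = 0.1.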

Additional observations from a re-analysis of the deposited data

How the results depend on the processing

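Of 443 fold changes of members recomputed under the alternatives, 347 kept their direction and their side of the threshold, 78 kept the direction but no longer passed, 11 newly passed, and 7 changed sign. Of the 78 that no longer passed, 75 came from leaving out a library. With 1 library left out, the genes called higher numbered 5 to 2312 and lower 0 to 2479, the members called higher 1 to 22 and lower 0 to 2, and the rises called were 0 to 5 in the feedback group, 0 to 3 each in arrest and repair, 1 to 5 in the metabolic group and 0 to 6 in cell death and membrane functions. Member exon bins called were 0 to 1, against 3 to 156 of all bins tested. The log2 fold changes that changed sign ranged over these fits from -0.029 to 0.27 (*Mdm4*), -0.19 to 0.39 (*Btg2*), -0.999 to 0.55 (*Gadd45b*), -0.87 to 0.55 (*Perp*) and -1.09 to 0.92 (*Rnf144b*), and that of *Btg2* was -0.011 with library totals only. DESeq2, median-of-ratios factors and library totals each called 2 members lower, with *Xpc* beside *Sesn1*, and DESeq2 called 2227 genes lower. Members called higher numbered 18 to 22 under DESeq2, the other scalings and filters and without robust estimation. Library totals moved the median of all genes to -0.10. At more than 2-fold, 224 genes and 11 members were higher and 743 genes and 0 members lower. The causes were not tested. Fewer libraries entered all the fits that left one out. Without wt replicate 1 or 2 these fits called 15.7% and 11.4% of all genes higher, against 9.32% with all libraries. Without any other library they called at most 0.101% higher. Reads were few for *Lif* and for some exon bins of *Mdm2*. What limited precision, few reads or the spread between embryos, was not tested. No paired analysis was possible because the embryo numbers in the labels match at most 1 wt with 1 KO library, beside KO replicates 2 and 3 with each other.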
